A study of Mus musculus with 6 samples.

Results

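The genes described here are 39 genes of DNA replication and deoxynucleotide supply in B16 mouse melanoma cells exposed to chronic or cyclic hypoxia. They were listed by name, with earlier results of these data known. Each was read from the brightest of its probe sets on the Affymetrix array. Of the 22690 probe sets on the array, 70 are annotated to a single gene that is among these. A further probe set names Tyms together with the pseudogene Tyms-ps. All 39 genes had a probe set with a mean signal of at least 8 units over the 6 arrays, the minimum for description, and so did 7800 genes in all. Among the 39, 31 had a mean signal of at least 100 units. The 8 dimmer ones were Cdc6, Cdc45, Orc1, Pola1, Pola2, Tyms, Ccne1 and Ccne2.

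B16 is an established pigmented mouse melanoma line. All 6 groups were placed in serum-free medium for 2 h before the exposure, so the normoxic cells share the serum withdrawal. The groups were normoxia for 3 h, normoxia with 1 h more, chronic hypoxia for 3 h at less than 1% oxygen, chronic hypoxia followed by 1 h of reoxygenation, cyclic hypoxia, and cyclic hypoxia followed by 1 h of reoxygenation. Cyclic hypoxia was given as 3 periods of 1 h separated by reoxygenation for 30 min, which makes this schedule longer than the 3 h of normoxia it is set against. Each group is 1 array made from 5 µg of total RNA, so no difference between 2 arrays has a replicate check, and the number of arrays limits the precision. Samples collected at the end of exposure were compared with normoxia, and those collected 1 h later with normoxia plus 1 h.

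Before a cell copies its DNA, the origin recognition complex, Cdc6 and Cdt1 load the MCM2-7 helicase onto origins, which is called licensing. Cyclin E with Cdk2 then helps to start S phase, the helicase is activated with Cdc45 and GINS, polymerase alpha with primase lays down primers, and polymerases delta and epsilon extend them with the sliding clamp PCNA. Ribonucleotide reductase, thymidylate synthase and thymidine kinase supply the deoxynucleotides. Many of these genes are transcribed in late G1 and S phase under E2F transcription factors, and ribonucleotide reductase itself needs oxygen to form its radical. In RNA from whole cultures, a smaller share of cells in S phase and less RNA of a gene per cell cannot be told apart.

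The arrays had like overall distributions, with median signals of 15.9 to 19.3 units. The array of cyclic hypoxia with reoxygenation stood apart. Its mean correlation with the other arrays over log2 signals was 0.940, against 0.962 to 0.967 for the other 5. Over all genes, 10.7% were lower by 2-fold or more there than in normoxia plus 1 h, against 1.21% to 5.53% in the other 3 hypoxia arrays. Of 8 melanocyte markers 7 were on the array, with mean signals of 1126 to 6064 units, while 0 of 6 fibroblast markers reached 8 units. The highest immune, endothelial and keratinocyte markers were Cd68 with 34.6 units, Vwf with 19.6 units and Krt5 with 10.0 units. The hypoxia-induced glycolytic gene Hk2 was higher by 2.95 on the log2 scale in chronic hypoxia, by 1.69 in cyclic hypoxia, by 2.43 in chronic hypoxia with reoxygenation and by 1.30 in cyclic hypoxia with reoxygenation.

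Most replication genes had lower signals in hypoxic than in normoxic cells, and mostly by less than 2-fold. At the end of chronic hypoxia 33 of the 39 were lower than in normoxia, where 49.6% of all genes were lower, and the median log2 difference was −0.27 against 0.00 over all genes. In cyclic hypoxia 36 of 39 were lower, beside 53.0% of all genes, and the median was −0.46 against −0.03. One hour after chronic hypoxia 30 of 39 were lower, beside 50.0% of all genes, with a median of −0.24 against 0.00. One hour after cyclic hypoxia 35 of 39 were lower, beside 49.7% of all genes, with a median of −0.45 against 0.00. The normoxia arrays, set against each other, had 21 of 39 lower in the later one, beside 48.6% of all genes, and a member median of −0.01.

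**Figure D1:**
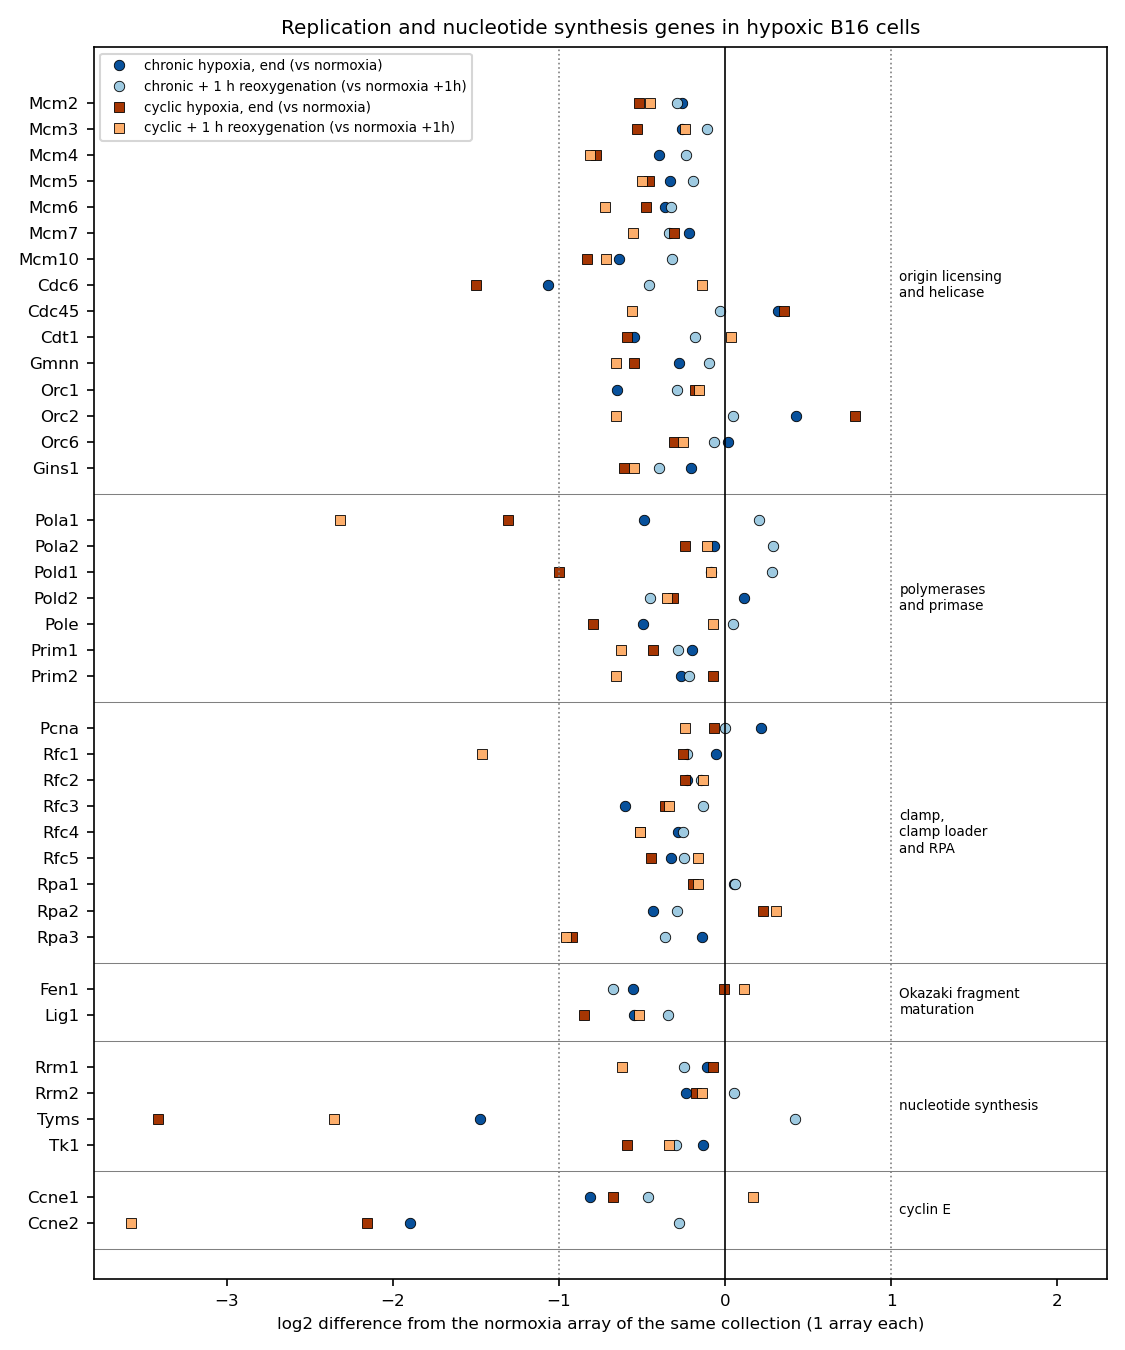
The horizontal axis is the log2 difference from the normoxia array of the same collection and each line is 1 gene, ordered by role. Circles are chronic and squares cyclic hypoxia, dark at the end of exposure and light after 1 h of reoxygenation, each from 1 array. Most points lie left of 0, and dotted lines mark 2-fold, passed by Cdc6, Pola1, Pold1, Rfc1, Tyms and Ccne2 only.

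Differences of 2-fold were few and all of them were towards lower signals in hypoxia. In chronic hypoxia 3 members were lower by 2-fold or more, namely Cdc6, Tyms and Ccne2, beside 2.53% of all genes. In cyclic hypoxia the 5 were Cdc6, Pola1, Pold1, Tyms and Ccne2, beside 5.53% of all genes. After reoxygenation there were 0 in the chronic regime, beside 1.21% of all genes. In the cyclic regime there were 4, Pola1, Rfc1, Tyms and Ccne2, beside 10.7%, so that share is near the background. No member was higher by 2-fold in any of the 4, beside 2.59%, 2.17%, 3.13% and 3.73% of all genes. The 31 members with mean signals of at least 100 units had medians of −0.26 and −0.45 at the end of chronic and cyclic hypoxia and of −0.24 and −0.45 after reoxygenation. The 3573 genes of that brightness had 0.03, 0.04, −0.03 and 0.03. In the same order, 0, 1 (Pold1), 0 and 1 (Rfc1) of the 31 were lower by 2-fold or more. Of the 3573 genes, 14, 52, 2 and 272 were. The 2-fold differences of Cdc6, Pola1, Tyms and Ccne2 thus come from members below 100 units.

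A count that takes all 6 arrays together asks whether a gene's 4 hypoxia values all lie below both normoxia values. This was so for 20 of the 39 genes, beside 9.76% of all genes, and the reverse for 0 of 39, beside 9.12%. The 20 were Mcm2 to Mcm7, Mcm10, Cdc6, Orc1, Gins1, Prim1, Rfc1, Rfc2, Rfc4, Rfc5, Rpa3, Lig1, Rrm1, Tk1 and Ccne2. With the outlying array of cyclic hypoxia with reoxygenation left out, the count was 23, beside 14.9% of all genes. A rule over fewer arrays can only keep or raise such a count, so the rise is not a check of it.

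**Figure D2:**
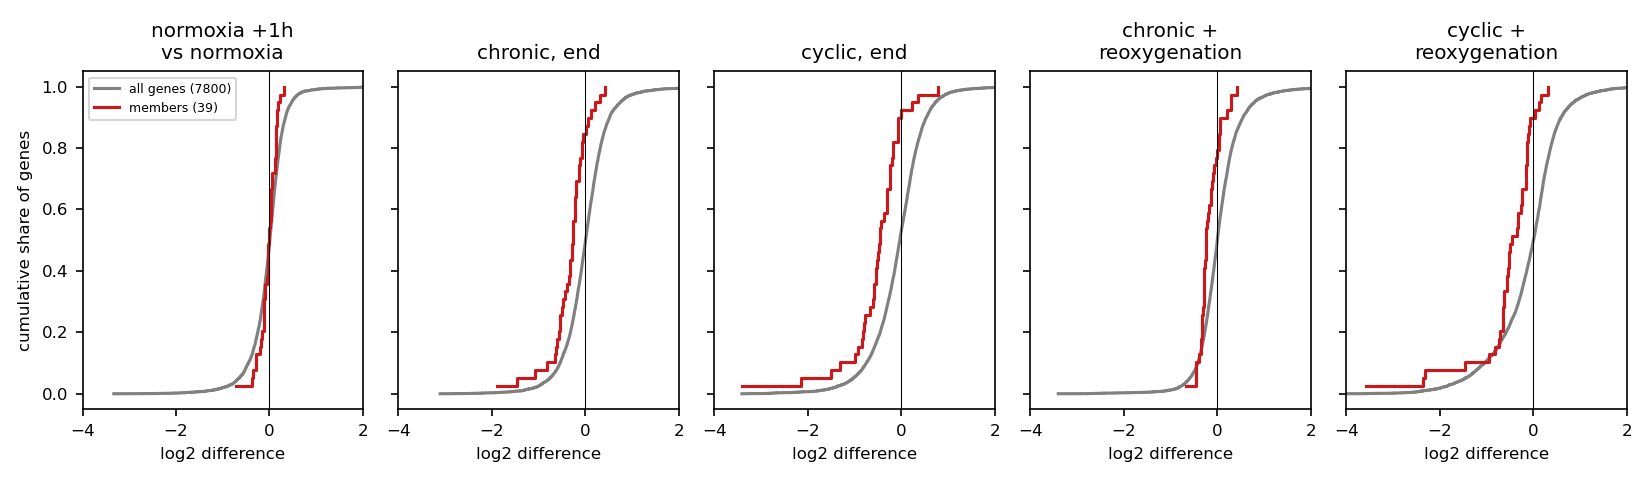
Cumulative share of genes (vertical axis) against the log2 difference (horizontal axis) for the 39 members in red and all 7800 genes in grey, 1 panel per pair of arrays. Between the normoxia arrays the medians were −0.01 for members and 0.01 for all genes. The SDs there were 0.19 and 0.40, so the members spread less widely. The red curve lies to the left over most of its length in the 4 hypoxia panels, with member medians of −0.27, −0.46, −0.24 and −0.45.

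The difference between the 2 normoxia arrays gives the only measure of scatter that does not involve hypoxia, and it includes 1 h of culture. Its SD over the 39 genes was 0.19 on the log2 scale. The difference stayed within 0.35 for 37 genes, the exceptions being Pola1 at −0.38 and Tyms at −0.71. In chronic hypoxia 4 members, Cdc6, Tyms, Ccne1 and Ccne2, differed by more than 0.71, as did 11 in cyclic hypoxia, 0 after chronic reoxygenation and 8 after cyclic reoxygenation. Orc2, among the 11, was higher, at 0.78. The limit is the difference of 1 dim probe set, that of Tyms, and the share of all genes past it was not counted. Over the 39 genes the SD was 0.43, 0.69, 0.23 and 0.74 in these comparisons with normoxia, in that order. Over all genes it was 0.40 between the normoxia arrays and 0.51, 0.57, 0.48 and 0.72 in these comparisons. The counts are therefore not read as a result about the members.

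Promoter sequences are shown for 4 members whose signals had different courses, because E2F and NF-Y, the factor that binds CCAAT, are the textbook regulators of this group. Each sequence is the 250 bases before the transcription start from RefSeq on GRCm38.p6, read 5′ to 3′ on the gene's strand, and capitals mark matches to the E2F letters TTTCCCGC or TTTGGCGC or to CCAAT on either strand. Cdc6 is at chr11:98907901-98908150 on the plus strand, Mcm6 at chr1:128359706-128359955, Pola1 at chrX:93632156-93632405 and Rpa3 at chr6:8259142-8259391, these 3 on the minus strand.
Cdc6: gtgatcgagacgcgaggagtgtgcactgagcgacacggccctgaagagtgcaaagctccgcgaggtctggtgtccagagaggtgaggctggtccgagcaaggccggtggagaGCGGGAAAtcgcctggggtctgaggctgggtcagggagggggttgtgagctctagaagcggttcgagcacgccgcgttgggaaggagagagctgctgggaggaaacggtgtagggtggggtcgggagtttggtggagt
Mcm6: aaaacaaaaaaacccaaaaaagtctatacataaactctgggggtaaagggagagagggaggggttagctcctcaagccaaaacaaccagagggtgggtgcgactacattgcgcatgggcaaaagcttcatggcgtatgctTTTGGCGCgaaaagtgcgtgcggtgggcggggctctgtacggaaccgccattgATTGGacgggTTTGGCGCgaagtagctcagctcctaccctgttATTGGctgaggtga
Pola1: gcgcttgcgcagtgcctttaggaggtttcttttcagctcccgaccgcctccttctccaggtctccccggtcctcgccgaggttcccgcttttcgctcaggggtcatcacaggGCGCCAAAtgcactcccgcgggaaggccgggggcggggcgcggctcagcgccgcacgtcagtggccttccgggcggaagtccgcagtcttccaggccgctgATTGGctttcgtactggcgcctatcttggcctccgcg
Rpa3: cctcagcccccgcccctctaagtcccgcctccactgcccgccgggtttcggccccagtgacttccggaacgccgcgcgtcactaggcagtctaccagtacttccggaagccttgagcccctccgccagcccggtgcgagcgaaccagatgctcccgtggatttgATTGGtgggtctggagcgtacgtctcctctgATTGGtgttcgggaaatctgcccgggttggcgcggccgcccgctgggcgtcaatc
The Cdc6 window has 1 E2F match, the Mcm6 window 2 E2F matches and 2 CCAAT matches, the Pola1 window 1 of each, and the Rpa3 window 2 CCAAT matches only.

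RefSeq windows of 300 bases, which reach 50 bases past the start, were at hand for 32 of the 39 genes, in 38 windows. E2F letters were in 9 of the 38, or 23.7%, against 1.56% of all 32851 windows of that length, and the genes were Cdc6, Cdt1, Mcm3, Mcm5, Mcm6, Mcm7, Pola1, Pold1 and Rfc3. CCAAT was in 23 windows, or 60.5%, against 37.4% of all. The core letters of the hypoxia response element, ACGTG or GCGTG, were in 24 windows, or 63.2%, against 43.8% of all. These are matches of letters on both strands, not measured binding, and base composition was not matched. Matches of different motifs shared a base in 0 of the 38 windows. The 9 genes with E2F letters had median log2 differences of −0.36 in chronic and −0.53 in cyclic hypoxia and of −0.18 and −0.34 after reoxygenation. The 23 genes whose windows lacked the letters had −0.20, −0.31, −0.25 and −0.35.

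Of the 15 genes of origin licensing and the helicase, 12 were lower in chronic hypoxia, 13 in cyclic hypoxia and 14 in each array after reoxygenation. Of all genes, 49.6% and 53.0% were lower in chronic and cyclic hypoxia, and 50.0% and 49.7% after reoxygenation. All 4 hypoxia values lay below both normoxia values for 10 of the 15, beside 9.76% of all genes. Cdc6, the ATPase that loads MCM2-7 onto origins, read 135 units in normoxia and 111 in normoxia plus 1 h. It read 64.4 in chronic and 47.8 in cyclic hypoxia, and 80.8 and 101 after reoxygenation. All 4 hypoxia values lay below both controls, furthest at the end of exposure. The log2 difference was −1.07 in chronic and −1.50 in cyclic hypoxia, and −0.46 and −0.14 an hour later. In the last hour of the cyclic regime the Cdc6 signal was thus 1.07 higher on the log2 scale.

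Cdt1, the other loading factor, and geminin (Gmnn), its inhibitor, did not keep the same course. Cdt1 read 1146 and 1195 units in the normoxia arrays, 783 in chronic hypoxia, 761 in cyclic hypoxia, 1055 after chronic and 1224 after cyclic reoxygenation. Both values at the end of hypoxia were below the controls, at −0.55 and −0.59, and the cyclic value an hour later was not, at 0.03. Gmnn was lower by any amount in each, at −0.28 in chronic and −0.54 in cyclic hypoxia, then −0.10 and −0.65 an hour later.

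The 6 subunits of the MCM2-7 helicase lay within a narrow band on their brightest probe sets, where each had all 4 hypoxia values below both controls. Their log2 differences ran from −0.40 for Mcm4 to −0.22 for Mcm7 in chronic hypoxia and from −0.77 for Mcm4 to −0.31 for Mcm7 in cyclic hypoxia. After reoxygenation they ran from −0.34 for Mcm7 to −0.11 for Mcm3 in the chronic regime and from −0.81 for Mcm4 to −0.24 for Mcm3 in the cyclic regime. Mcm4 read 448 and 412 units in the controls, 341 and 349 in the chronic arrays and 262 and 235 in the cyclic arrays, so its 3 conditions separated in order on this probe set. A second Mcm4 probe set read 313 and 235 units in the controls, 162 and 257 in the chronic arrays and 160 and 169 in the cyclic arrays, and its chronic values overlapped the controls. Mcm10, which is needed to activate the loaded helicase, had −0.64, −0.83, −0.32 and −0.71 in chronic hypoxia, cyclic hypoxia, chronic reoxygenation and cyclic reoxygenation, the order kept in what follows. Gins1, a subunit of the GINS complex of the active helicase, had −0.20, −0.61, −0.39 and −0.55. Of the 5 probe sets of Mcm3, 2 read higher after chronic reoxygenation, at 0.16 and, on the dimmest, 1.1, as did the second probe sets of Mcm4 and Mcm6, at 0.13 and 0.09.

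Some genes of this role went the other way in part. Orc2, a subunit of the origin recognition complex, was 0.43 and 0.78 above normoxia at the end of chronic and cyclic hypoxia, 0.05 above after chronic reoxygenation and 0.66 below after cyclic reoxygenation on the log2 scale. A second Orc2 probe set gave 0.12, 0.07, −0.02 and −0.87, so the higher values at the end of hypoxia were far smaller there. Cdc45, part of the active helicase, had 0.32, 0.35, −0.03 and −0.56, while the normoxia arrays differed by 0.32 for this gene. Orc6 stayed at 0.02 and −0.06 in the chronic arrays and at −0.31 and −0.25 in the cyclic arrays. Orc1 had −0.65, −0.18, −0.29 and −0.16 from signals of 14.6 to 25.3 units, which are dim.

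**Figure D3:**
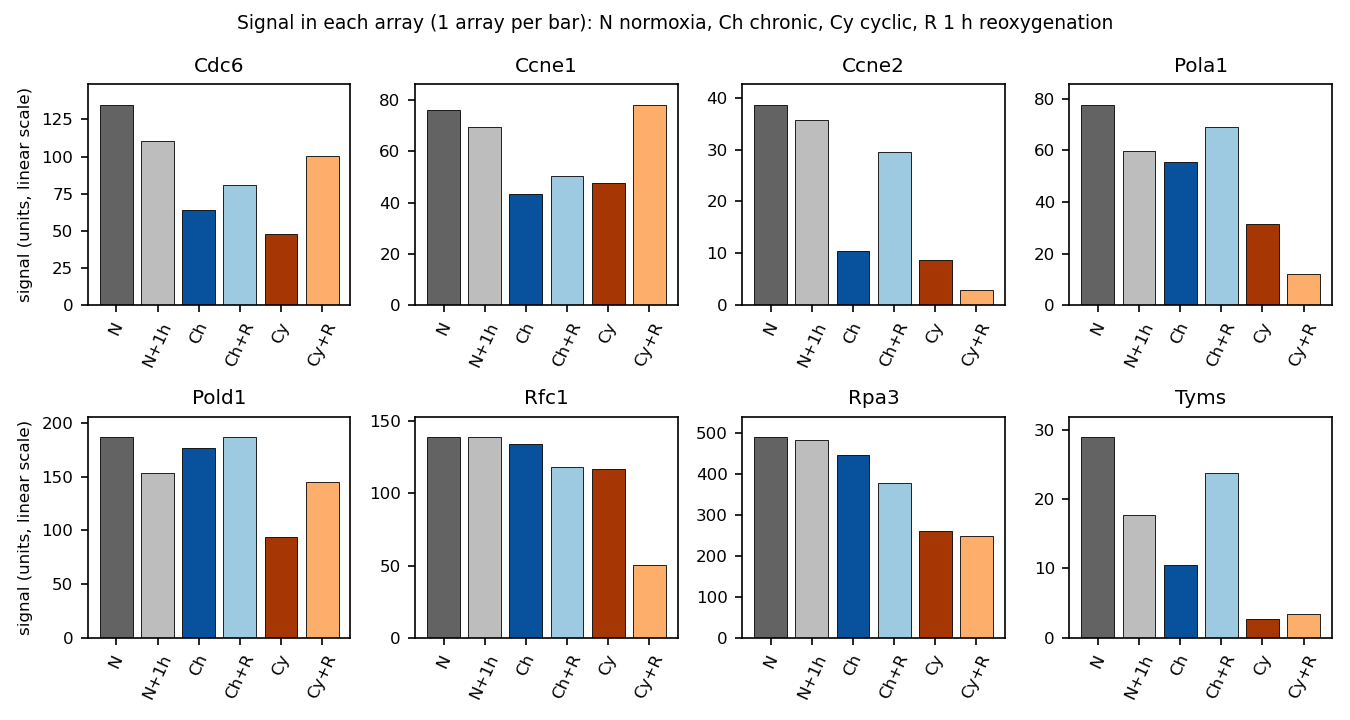
Deposited signal (vertical axis, linear scale from 0) of 8 members on the 6 arrays (horizontal axis), where N is normoxia, Ch chronic hypoxia, Cy cyclic hypoxia and R 1 h of reoxygenation, with 1 array per bar and no replicates. Cdc6 reads 47.8 units in cyclic hypoxia and 101 units an hour later, while Pola1 and Ccne2 are lowest after cyclic reoxygenation, at 12.0 and 3.00 units.

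Among the 7 polymerase and primase genes, 6 were lower in chronic hypoxia, all 7 in cyclic hypoxia, 3 after chronic reoxygenation and all 7 after cyclic reoxygenation. Of all genes, 49.6%, 53.0%, 50.0% and 49.7% were lower, so the 3 after chronic reoxygenation, or 42.9%, are not above that share. The medians of the 7 were −0.20, −0.43, 0.05 and −0.35. Only Prim1 had all 4 hypoxia values below both controls, beside 9.76% of all genes. Pola1, the catalytic subunit of polymerase alpha, read 77.8 and 59.9 units in the normoxia arrays and 55.5 and 69.0 in the chronic arrays. It read 31.5 in cyclic hypoxia and 12.0 after cyclic reoxygenation. The chronic values overlapped the controls and both cyclic values were below them, with log2 differences of −0.49, −1.30, 0.20 and −2.32. Pola1 has 1 probe set and the lowest value comes from the array that stood apart.

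Pold1, the catalytic subunit of polymerase delta, read 187 and 153 units in the normoxia arrays, 177 and 187 in the chronic arrays, 93.5 in cyclic hypoxia and 145 after cyclic reoxygenation. Only the value at the end of cyclic hypoxia was far from the controls, at −1.0, and a second probe set gave −0.75 there. Prim1, the catalytic subunit of primase, read 382 and 353 units in normoxia, 333 and 291 in the chronic arrays and 283 and 229 in the cyclic arrays. The groups did not overlap on this probe set, and the differences were −0.20, −0.43, −0.28 and −0.63. On a second probe set they did, with differences of 0.03, −0.63, −0.42 and −0.47. Pole, the catalytic subunit of polymerase epsilon, had −0.49 and −0.80 at the end of chronic and cyclic hypoxia and 0.05 and −0.07 an hour later, beside −0.35 between the normoxia arrays. Pola2, Pold2 and Prim2, accessory subunits, ranged from −0.66 to 0.29 over the 4 comparisons.

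The sliding clamp was steady. Pcna, the ring that holds the polymerases on DNA, read 3073 and 3483 units in normoxia, 3572 and 3485 in the chronic arrays and 2938 and 2951 in the cyclic arrays. The differences were 0.22, −0.06, 0.00 and −0.24, beside 0.18 between the normoxia arrays. Rpa1, the large subunit of the single-strand binding protein RPA, was also among the 3 steadiest members. It read 2443 and 2521 units in normoxia, 2538 and 2633 in the chronic and 2141 and 2254 in the cyclic arrays, with differences of 0.06, −0.19, 0.06 and −0.16. A second Rpa1 probe set gave −0.22, −0.39, −0.09 and −0.20. Under quantile normalization or median centring, signs in the 4 hypoxia comparisons turned only for members with differences of at most 0.16 in size, Pcna and Rpa1 among them, and Pola2, Pold1 and Pole after cyclic reoxygenation.

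The other RPA subunits did not follow Rpa1. Rpa3, the small subunit, read 490 and 483 units in normoxia, 445 and 377 in the chronic arrays, and 259 and 249 in the cyclic arrays. The cyclic values were close to each other and well below the rest, with differences of −0.92 and −0.95 against −0.14 and −0.36 in the chronic regime. Rpa2, the middle subunit, read 122 and 125 units in normoxia, 90.6 and 102 in the chronic arrays, and 143 and 154 in the cyclic arrays. Its chronic values were below and its cyclic values above both controls, with differences of −0.43, 0.23, −0.29 and 0.31. A second Rpa2 probe set gave −0.55, 0.21, −0.31 and 0.20. On the brightest probe sets, opposite signs of the regimes at both collections were seen for 3 of the 39 members, Pcna, Rpa1 and Rpa2, beside 9.22% of all genes, where the Pcna difference after chronic reoxygenation was 0.00.

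The clamp loader RFC, which opens the PCNA ring, has 5 subunits. Rfc2, Rfc4 and Rfc5 had all 4 hypoxia values below both controls, with differences between −0.51 and −0.13. Rfc3 had −0.60, −0.36, −0.13 and −0.34. Rfc1, the large subunit, read 139 units in both normoxia arrays, 134 and 119 in the chronic arrays, 117 in cyclic hypoxia and 50.6 after cyclic reoxygenation. Only that last array was far from the rest, at −1.46 against −0.05, −0.25 and −0.23. Its other 2 probe sets gave −1.78 and −2.43 there, and values of either sign in the other arrays.

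The pair of genes that join Okazaki fragments had different courses. Fen1, the nuclease that trims the flap, read 676 and 743 units in normoxia, 460 and 466 in the chronic arrays, and 675 and 803 in the cyclic arrays. Chronic values were below and cyclic values at or above the controls, with differences of −0.56, −0.00, −0.67 and 0.11, and a second probe set gave −0.50, 0.18, −0.62 and 0.11. Lig1, the ligase that seals the nick, was lower in all 4 at −0.54, −0.85, −0.34 and −0.52.

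For deoxynucleotide synthesis, all 4 genes were lower on their brightest probe sets at the end of both exposures and after cyclic reoxygenation. After chronic reoxygenation 2 of 4 were lower. Of all genes, 49.6% and 53.0% were lower in chronic and cyclic hypoxia, and 50.0% and 49.7% after reoxygenation. The 2 of 4 are thus at the share of all genes. Rrm2, the small subunit of ribonucleotide reductase, read 2066 and 2083 units in normoxia, 1760 in chronic hypoxia, 2161 after chronic reoxygenation, 1834 in cyclic hypoxia and 1890 after cyclic reoxygenation. It was among the 3 steadiest members on this probe set, with differences of −0.23, −0.17, 0.05 and −0.14. Its other 2 probe sets gave −0.36, −0.19, −0.10 and −0.39, and −0.03, 0.21, −0.50 and −0.67. Rrm1, the large subunit, had −0.11, −0.07, −0.24 and −0.62 and, on a second probe set, −0.06, 0.35, −0.37 and −0.35. For Tk1, the cytosolic thymidine kinase, the differences were −0.13, −0.59, −0.30 and −0.33.

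Tyms, thymidylate synthase, had the widest range in this role on a dim probe set of 29.0 and 17.8 units in normoxia. It read 10.5 in chronic hypoxia, 23.8 after chronic reoxygenation, 2.73 in cyclic hypoxia and 3.48 after cyclic reoxygenation. The last 2 values are near the floor of 2.10 units, and the differences were −1.47, −3.41, 0.42 and −2.35. A far brighter probe set is annotated to both Tyms and the pseudogene Tyms-ps, so that it cannot be assigned to either. It read 175 and 206 units in normoxia, 180 and 163 in the chronic arrays and 158 and 156 in the cyclic arrays. The 2-fold differences counted for Tyms thus rest on the dim probe set alone.

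The cyclin E genes, whose products activate Cdk2 at the start of S phase, parted after cyclic reoxygenation. Ccne1 read 75.9 and 69.5 units in normoxia, 43.1 and 50.5 in the chronic arrays, 47.6 in cyclic hypoxia and 78.1 after cyclic reoxygenation. The 2 chronic values and the first cyclic value were below both controls and the last was above them, with differences of −0.81, −0.67, −0.46 and 0.17. Ccne2 read 38.7 and 35.7 units in normoxia, 10.4 in chronic hypoxia, 29.5 after chronic reoxygenation, 8.67 in cyclic hypoxia and 3.00 after cyclic reoxygenation. All 4 were below the controls, with differences of −1.89, −2.16, −0.27 and −3.57, and the last value is near the floor.

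The last hour of reoxygenation was also read directly, array against array within a regime. In the chronic regime 23 of 39 members were higher at the later collection and 16 lower, beside 48.2% and 51.8% of all genes, and the median was 0.02. Higher by 2-fold or more were 2 members, Tyms by 1.19 and Ccne2 by 1.5 on the log2 scale, beside 2.4% of all genes, and 0 were lower by 2-fold, beside 1.5%. In the cyclic regime 24 were higher and 15 lower, beside 51.4% and 48.6%, with a median of 0.05. Orc2, Pola1, Rfc1 and Ccne2 were lower by 2-fold or more there, beside 7.5% of all genes, and Cdc6 was higher, beside 2.95%. The balance of small differences in the chronic regime turned with the scaling, since 23 members were lower at the later collection with each array centred on its median, beside 60.0% of all genes.

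Comparisons at the end and 1 h later share no array, so each regime was read at both. After chronic hypoxia 27 of 39 members were lower at both collections, beside 27.2% of all genes, and after cyclic hypoxia 33 of 39, beside 31.5%. Across the 39 genes the differences of the 2 collections had a Pearson correlation of 0.12 in the chronic and 0.64 in the cyclic regime, against 0.18 and 0.28 across all genes. These describe genes of the same arrays and are not tests, and in the cyclic regime Tyms, Ccne2 and Pola1 lie far from the rest.

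**Figure D4:**
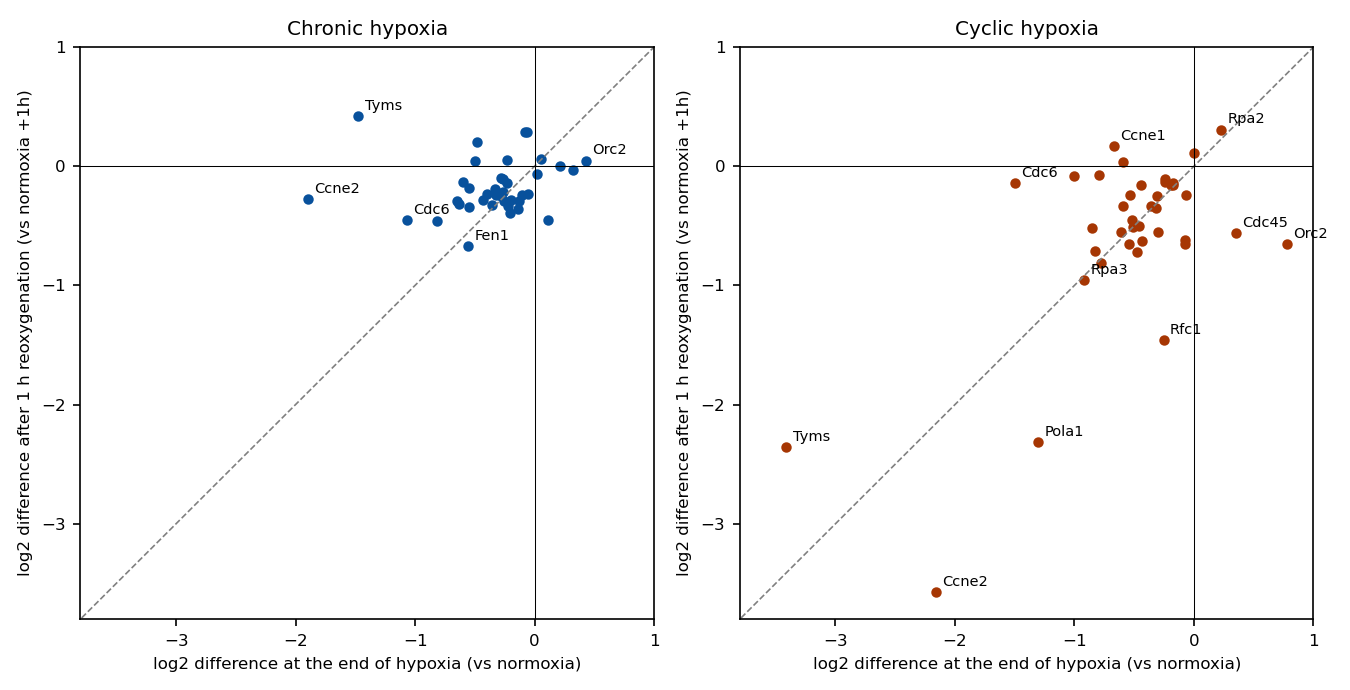
Log2 difference from normoxia at the end of hypoxia (horizontal axis) against that after 1 h of reoxygenation (vertical axis), 1 point per member, with chronic hypoxia on the left and cyclic on the right. In the chronic panel 27 of 39 points lie in the lower left area, below 0 on both axes, and in the cyclic panel 33, and the dashed line marks equal differences.

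The regimes were also set against each other, in array pairs that share no array. Cyclic values were below chronic values at both collections for 24 of 39 genes, beside 33.0% of all genes. They were above at both for 4, namely Orc1, Rpa2, Fen1 and Ccne1, beside 28.7%. The median difference was −0.23 at the end and −0.22 after reoxygenation. This count depends on how the arrays are scaled, since with each array centred on its median it was 13 below and 8 above, and the second median was 0.057, beside 0.28 over all genes.

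A test was possible only in a model that adds regime and collection, fitted by limma to all 6 arrays and 13677 probe sets, with the 2 collections of a regime in place of replicates and 2 residual degrees of freedom. No replication gene had an adjusted p below 0.05, while 13 probe sets, or 0.0951%, were called higher in chronic hypoxia and 0 lower, and 0 were called in cyclic hypoxia. At an unadjusted p below 0.05, 3 members were lower in chronic hypoxia, beside 1.55% of all genes, 18 in cyclic hypoxia, beside 10.2%, and 16 in the mean of both, beside 4.5%, with 0 higher in each, beside 3.94%, 5.41% and 4.86% of all genes higher. Between the regimes, 7 members were lower and 2 higher in cyclic hypoxia at that level, beside 11.1% of all genes lower and 4.1% higher. Between collections 0 were lower and 1 higher, beside 0.987% and 1.28%. The member nearest to a call was Rpa3 in cyclic hypoxia, with a log2 difference of −0.94 (SE 0.18) and an adjusted p of 0.117. For Pola1 the fit gave −1.81 (SE 0.39) with an adjusted p of 0.122, and for Ccne2 −2.87 (SE 0.67) with 0.145. In chronic hypoxia the lowest adjusted p was that of Fen1, −0.61 (SE 0.16), at 0.540. With the array of cyclic hypoxia left out, the cyclic regime rests only on the array that stood apart. Calls from that fit are therefore not read as a result about the members.

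Genes around the replication fork were read from further lists. Of all genes, 49.6%, 53.0%, 50.0% and 49.7% were lower in chronic hypoxia, cyclic hypoxia, chronic reoxygenation and cyclic reoxygenation. Of 30 other replisome genes 21 had a probe set naming that gene alone, and 20 of these genes were bright enough. Among them 14, 19, 13 and 15 were lower in that order of comparisons, with medians of −0.29, −0.32, −0.06 and −0.28. The lowest by the mean of the 4 were Topbp1, which activates the checkpoint kinase Atr, at −0.31, −0.83, 0.09 and −1.46, and Pold3, a polymerase delta subunit, at −0.49, −0.51, −0.64 and −0.82. Of 19 other nucleotide synthesis genes 13, 15, 9 and 13 were lower, with medians of −0.16, −0.40, 0.00 and −0.10. The 9, or 47.4%, are near the share of all genes. Dck, the kinase that salvages deoxycytidine, was lowest at −1.31, −1.62, 0.03 and −0.85. The mitochondrial folate enzymes Shmt2 and Mthfd2 were highest, Shmt2 at 0.30, 0.79, 0.16 and 0.85 and Mthfd2 at 0.68, 0.60, 0.29 and 0.32. Of 9 genes listed for chromatin assembly and S phase, none of them a histone gene, 8, 7, 8 and 9 were lower, with medians of −0.29, −0.37, −0.23 and −0.45.

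The cell cycle and checkpoint lists follow in the same order of comparisons, in which 49.6%, 53.0%, 50.0% and 49.7% of all genes were lower. Of 24 regulators of the G1 to S transition 13, 17, 13 and 17 were lower, with medians of −0.05, −0.26, −0.08 and −0.25. The 13 in each chronic array, or 54.2%, are near the share of all genes. Cdk2, the kinase partner of cyclin E, was higher in all 4 at 0.54, 0.58, 0.50 and 0.76, while the repressor E2f8 had −0.89, −0.78, −0.73 and −0.18. Of 25 genes of G2 and mitosis 9, 15, 20 and 20 were lower, with medians of 0.02, −0.16, −0.15 and −0.37. The 9, or 36%, are below the share of all genes. Of 11 replication stress and checkpoint genes 8, 8, 7 and 9 were lower, with medians of −0.13, −0.87, −0.09 and −0.59. Chek1, the kinase that slows replication under stress, had −0.70, −1.16, −0.36 and −2.19, and Atm, the kinase of the double-strand break response, −0.20, −1.46, −0.09 and −2.66. The fit called no gene of these lists, and differences between lists were not tested.

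**Figure D5:**
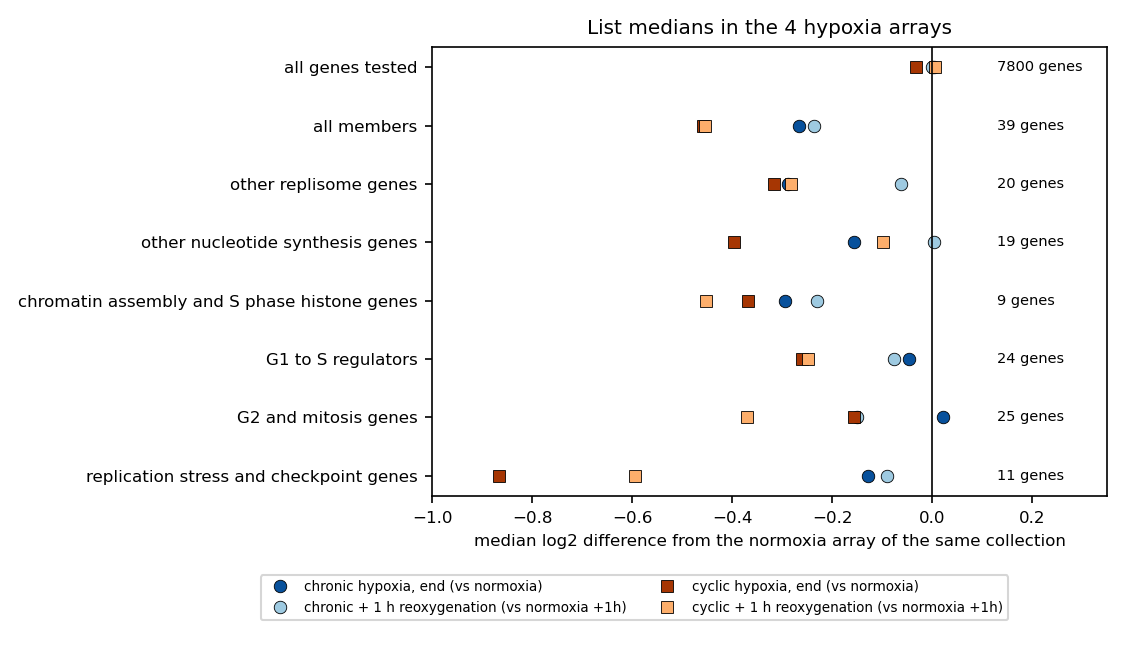
Median log2 difference from the normoxia array of the same collection (horizontal axis) for each gene list and for all 7800 genes, with the number of genes at the right. Circles are chronic and squares cyclic hypoxia, light after reoxygenation. The list labelled chromatin assembly and S phase histone genes holds no histone gene. The 39 members lie at −0.27 and −0.24 in the chronic and −0.46 and −0.45 in the cyclic regime, and all genes lie near 0.

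Further probe sets of the same genes, 27 with a mean of at least 8 units, gave a second reading of the RNA on the same arrays. Their medians were −0.22, −0.29, −0.26 and −0.41, and 22, 18, 22 and 24 of the 27 were lower. On their brightest probe sets, 49.6%, 53.0%, 50.0% and 49.7% of all genes were lower. The 27 further probe sets had the sign of the gene's brightest probe set in 23, 21, 18 and 25 cases.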

How the data were processed

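RNA from B16 cells was hybridised to 6 single-colour Affymetrix arrays, 1 per group, and nothing says that the groups came from more than 1 culture each. The authors deposited linear signal intensity for each probe set, made with GCOS per the submitters' processing notes (version not given in the sources used here). The values of every array had a trimmed mean of 100 units after 2% was cut at each end, as a check of the values showed, so differences are relative to the whole array.

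A floor of 2.10 units, the 20th percentile over the 6 arrays, was set before log2 was taken. Probe sets with a mean of at least 8 units were kept, 13677 in all, and each gene was read from its brightest probe set, which gave 7800 genes. Probe sets were named from the platform annotation, in which 20393 carry 1 gene and 691 several. Differences between 2 arrays are described with no test. The additive model used limma 3.58.1 in R 4.3.3 (lmFit and eBayes with a trend, two-sided, Benjamini-Hochberg adjustment over 13677 probe sets at 0.05). It was also run on simulated data with normal noise, where changed probe sets had the same difference in all hypoxia arrays. Such data meet the model by construction, so that run does not show how the model does on the real arrays.

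The members, lists, motifs and naming rules were chosen with earlier results of these data known. All 6 values are given for members that differed by 1 or more on the log2 scale in any of the 4 hypoxia comparisons, for the 3 steadiest, and for the brightest of each role; values of Mcm4, Rpa2 and Rpa3 and remarks on other single members were added after their values were seen. From the other lists, up to 2 highest and 2 lowest genes by the mean of the 4 comparisons could be named. Promoter sequences come from RefSeq, which had no window for 7 members. Alternatives were quantile and median scaling, other floors, filters and offsets, other probe sets, a fit with no trend, and leaving out each array.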

Additional observations from a re-analysis of the deposited data

Results flagged for a closer look

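Some members had differences that ran in opposite directions between regimes or collections. The values below are log2 differences from the normoxia array of the same collection in the order chronic hypoxia, cyclic hypoxia, chronic hypoxia with reoxygenation, cyclic hypoxia with reoxygenation. Rpa2 had −0.43, 0.23, −0.29 and 0.31, below the controls in both chronic arrays and above them in both cyclic arrays. Pcna had 0.22, −0.06, 0.00 and −0.24, and Rpa1 had 0.06, −0.19, 0.06 and −0.16, opposite in sign to Rpa2 and small, and a second Rpa1 probe set was lower in all 4 arrays, at −0.22, −0.39, −0.09 and −0.20. Of all 7800 genes, 9.22% had opposite signs between regimes at both collections. Cdc45 had 0.32 and 0.35 at the end of exposure and −0.03 and −0.56 after reoxygenation. In the additive limma fit the difference of cyclic from chronic hypoxia was 0.63 (SE 0.21, adjusted p = 0.273) for Rpa2, −0.26 (SE 0.11, adjusted p = 0.331) for Pcna, −0.23 (SE 0.11, adjusted p = 0.366) for Rpa1 and −0.25 (SE 0.27, adjusted p = 0.713) for Cdc45, so none passed the threshold. Whether the difference of Cdc45 from normoxia itself differed between the collections was not tested.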

How the results depend on the processing

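The members were lower than normoxia in most genes and in the median in all 4 hypoxia comparisons under every alternative run. The median of cyclic minus chronic hypoxia after reoxygenation went from −0.22 to 0.057 with median centring, and the small medians of the last hour after chronic hypoxia and of the normoxia pair went from 0.02 to −0.04 and from −0.01 to 0.08. Median centring moved the median of all genes to 0.08, −0.13 and 0.16 in cyclic hypoxia, chronic reoxygenation and cyclic reoxygenation. Under it 33, 32, 35 and 29 members were lower in chronic hypoxia, cyclic hypoxia, chronic reoxygenation and cyclic reoxygenation, beside 46.1%, 42.8%, 64.5% and 39.2% of all genes. The counts of 2-fold differences were smaller under other treatments of low signals. With log2(value + 16) they were 1 in chronic hypoxia, 3 in cyclic hypoxia, 0 in the last hour after chronic and 1 after cyclic hypoxia, and 0 between the regimes at the end of exposure. With a mean signal of at least 8 on the log2 scale all of these counts, and those of cyclic reoxygenation against normoxia and against chronic reoxygenation, were 0. That filter left 17 members, of which 15, 17, 14 and 15 were lower, beside 44.6%, 43.9%, 56.4% and 39.4% of the 1748 genes it left. All 4 hypoxia values lay below both controls for 11 of the 17, beside 9.21%, a smaller count from fewer genes. Leaving out 1 array at a time, which can only keep or raise the last count, gave 21 to 26 of 39, beside 11.8% to 20.7% of all genes. Median centring gave 16, beside 8.04%, and quantile normalization 24, beside 9.08%.

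In the additive fit the 13 probe sets called in chronic hypoxia became 24 with quantile normalization, 43 with median centring, 22 with log2(value + 16), 0 with no filter and 0 without the trend. The 0 called in cyclic hypoxia became 20, 314 and 6 under the first 3 of these and 24 with the filter at 8 on the log2 scale. The 2 called for the mean of both regimes became 24, 50 and 13, then 13 with that filter, 1 with the floor at the 10th percentile, 0 with no filter and 0 without the trend. Between the regimes the 0 became 118 with median centring and 7 with that filter. Members were called with median centring only, 3 in cyclic hypoxia (Pola1, Tyms, Ccne2) and 1 between the regimes (Pola1), or with an array left out. Fits without 1 array, which have 1 residual degree of freedom and take the lone array of a regime to vary like the others, called 3 (without chronic reoxygenation) to 70 (without cyclic reoxygenation) probe sets in chronic hypoxia. They called 6 to 1270 in cyclic hypoxia, 5 to 518 in the mean and 0 to 1331 between the regimes, each highest without the array of cyclic hypoxia. Members called were 0 to 7 in cyclic hypoxia, 0 to 2 in the mean and 0 to 4 between the regimes. The alternatives for the counts of members lower by any amount and of members below both controls were added after the data were seen. The causes of these shifts were not tested. No paired analysis was possible by replicate number because each group has 1 array, and the matching of arrays by collection is a term of the additive fit.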
